A study of Homo sapiens with 12 samples.

Results

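Fatty acids are broken down in mitochondria and in peroxisomes, and 36 genes of these pathways were followed in Huh7, a cell line from a human hepatocellular carcinoma, out of 63677 genes counted. The genes were chosen by name for what they encode, with earlier results of these data known. Of them, 18 belong to mitochondria, 13 to peroxisomes, and 5 act before or between the compartments. Untreated cells, kept in medium, were compared with cells exposed for 6 h to 400 µg/mL graphene oxide (GO), to 400 µg/mL GO carrying the ginsenoside Rg3 (GO–Rg3), or to 100 µg/mL GO–Rg3 loaded with doxorubicin (GO–Rg3–DOX). Every group held 3 samples of the same line, and cells given free doxorubicin were not analysed here. Since the GO–Rg3–DOX dose differed from that of GO and GO–Rg3, its values are given beside theirs and no difference between them was tested. The labels do not say whether the samples of a group were separate cultures, so the p-values measure the spread between these samples, which may be technical.

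In mitochondria, long-chain fatty acids enter through the carnitine shuttle and are then shortened by repeated cycles of dehydrogenation, hydration, a further dehydrogenation and thiolysis. The electrons pass through the electron transfer flavoprotein to the respiratory chain. Liver cells can turn the resulting acetyl-CoA into ketone bodies. Peroxisomes shorten very-long-chain and branched fatty acids and bile acid precursors with enzymes of their own, release hydrogen peroxide in doing so and break it down with catalase. Their proteins are made in the cytosol and brought in by peroxins, the PEX proteins.

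Counts per sample totalled 27802871 to 38877420, and 35 of the 36 genes had the 10 counts in 3 samples required for testing. The hepatocyte markers (ALB, AFP, APOA1, APOB, TTR, SERPINA1, TF, HNF4A) were all at 158 CPM (counts scaled to a common library size) or more in every sample. The 7 markers of other cell types summed to between 0.423 and 1.55 CPM, the endothelial marker PECAM1 was at 0 in all 12 samples, and the basal epithelial marker KRT5 was at 0 in all but the GO–Rg3–DOX group. Their sum was 1.18 to 1.55 CPM after GO–Rg3–DOX and 0.423 to 0.863 CPM in untreated cells, with COL1A1, a fibroblast collagen, higher by 2.55 ± 0.63 (log2 ± SE, edgeR adjusted p = 0.0022) at 0.598 ± 0.23 CPM, and the part of these markers in the results was not tested. GO replicate 1 stood apart from the other GO samples, with 24.1% of its counts from mitochondrially encoded genes against 12.1% and 14.8%. The share was 5.81% ± 0.489 (SD, n = 3) in untreated cells and 7.24% ± 0.301 after GO–Rg3. After GO–Rg3–DOX it was 15.4% ± 3.52, highest in replicate 1 (19.4%), which stood apart from the other samples of its group.

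Levels below are CPM scaled by edgeR's TMM method, and a log2 fold change is given with its standard error. A gene passed the test at an adjusted p below 0.01 (edgeR's quasi-likelihood test, Benjamini-Hochberg adjustment over 17092 genes). It was called overexpressed or under-expressed if its log2 fold change was also above 1 in size.

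Per kilobase of transcript, the most abundant member in untreated cells was ACADVL, the very-long-chain acyl-CoA dehydrogenase of mitochondria, at 191 ± 3.42 CPM per kilobase (SD, n = 3). It was followed by ECHS1, the short-chain enoyl-CoA hydratase, at 129 ± 1.64 and by ETFA, the alpha subunit of the electron transfer flavoprotein, at 108.9 ± 0.283. The most abundant peroxisomal members were HSD17B4, the D-bifunctional protein, at 101.8 ± 1.1 and ACAA1, the peroxisomal thiolase, at 100.0 ± 2.87, and these neighbours overlapped between samples. Of the 35 pairs of neighbours in this order, 22 did not overlap over the untreated samples and 13 did. At the low end stood PEX11A, which helps peroxisomes to divide, at 1.77 ± 0.108, BDH1, which makes 3-hydroxybutyrate, at 0.0817 ± 0.0124, and the long-chain dehydrogenase ACADL at 0.0400 ± 0.0223. ACADL had between 0 and 6 counts per sample, 28 in all, and was not tested.

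After GO at 400 µg/mL, 14 of the 35 tested members were lower and 2 were higher than in untreated cells, or 40% and 5.71%. Over all 17092 genes, 15.4% were lower and 12.1% higher by the same test. Of the 17 mitochondrial members 8 fell and 0 rose, of the 13 peroxisomal members 6 fell and 0 rose, and the 2 that rose, ACSL1 and ACSL5, activate long-chain fatty acids by joining them to coenzyme A. The median log2 fold change was -0.28 for mitochondrial and -0.41 for peroxisomal members, beside 0.01 over all genes. In 17 members all GO samples lay below all untreated samples and in 8 above them (48.6% and 22.9%), against 29.9% and 28.6% of all genes. In such bulk samples fewer expressing cells and less RNA per cell cannot be told apart. The summed level of the hepatocyte markers was also lower after GO (14466 to 17532 CPM against 23138 to 23270 CPM in untreated cells). By gene, 4 of the 8 markers had a negative and 4 a positive fold change. Of these, 3 passed the test as lower and 1 as higher, and the part of the markers in the result was not tested.

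The order of these medians rested on GO replicate 1. Without it the mitochondrial median was -0.44 and the peroxisomal median -0.27, with 9 mitochondrial and 6 peroxisomal members lower and 1 peroxisomal member, PEX11A, higher. Without GO replicate 3 the mitochondrial median was -0.18.

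The largest fall after GO, and the 1 member called, where 6.47% of all genes were, was that of SCP2, which encodes a sterol carrier protein and a thiolase of peroxisomes (GRCh37 chr1:53392948-53517370, plus strand). SCP2 was at 158, 159.6 and 153 CPM in untreated replicates 1 to 3 and at 58.4, 87.1 and 82.8 CPM after GO. It was at 104, 134 and 126.2 CPM after GO–Rg3 and at 140.4, 179 and 186 CPM after GO–Rg3–DOX. All GO samples lay below all untreated and all GO–Rg3 samples, and GO–Rg3–DOX overlapped with untreated cells. The log2 fold change after GO was -1.04 ± 0.15 (edgeR adjusted p = 8.5e-05), a ratio of 0.486. It was -0.88 without GO replicate 1 and -0.80 with an offset for GC content in the fit, past the test but short of a call.

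CAT, the catalase that removes hydrogen peroxide, fell to 54.9, 88.4 and 79.4 CPM after GO from 148, 147 and 148 CPM, a log2 fold change of -0.99 ± 0.16 (edgeR adjusted p = 0.000187). HSD17B4 fell by 0.41 on the log2 scale (edgeR adjusted p = 0.00339). It did not pass without any one of the untreated samples or without GO replicate 3, at fold changes of -0.43 to -0.40, nor with the GC offset (-0.24). ABCD3, which carries acyl-CoA into peroxisomes, fell by 0.70 (edgeR adjusted p = 0.00153). EHHADH, the L-bifunctional protein, was at -0.42 ± 0.13 and did not pass the test (edgeR adjusted p = 0.0176). The values for ACAA1 and for ACOX2, the branched-chain acyl-CoA oxidase, were -0.14 ± 0.09 and 0.02 ± 0.11. Of the 6 peroxins, PEX3 and PEX13 fell (-0.96 and -0.86), while PEX14, PEX19, PEX5 and PEX11A did not pass and lay between -0.20 and 0.58.

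Among the mitochondrial members, the electron transfer flavoprotein had the largest fall, and its subunits did not move together. ETFA was at 249.3, 248 and 249.8 CPM in untreated cells and at 128, 134 and 116 CPM after GO, a log2 fold change of -0.98 ± 0.10 (edgeR adjusted p = 6.63e-06). ETFB, the beta subunit, was at 15.4, 14.1 and 15.1 CPM in untreated cells and at 20.4, 17.1 and 16.2 CPM after GO, a log2 fold change of 0.27 ± 0.17 that did not pass the test (edgeR adjusted p = 0.223). All 3 ETFB samples lay above untreated cells, and with a GC offset the value was -0.08. ETFDH, which hands the electrons on to ubiquinone, fell by 0.69 (edgeR adjusted p = 0.000827), but its exons overlap those of PPID and C4orf46 on the other strand and the counts may be mixed.

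In the beta-oxidation cycle, ACADM, the medium-chain acyl-CoA dehydrogenase, fell (-0.78), as did HADH, the short-chain 3-hydroxyacyl-CoA dehydrogenase (-0.63), HADHB (-0.58) and the thiolase ACAA2 (-0.50, and -0.33 with a GC offset, which did not pass). ACADM shares exonic bases with RABGGTB on the same strand. ACADVL at 0.20 ± 0.10, ACADS, the short-chain dehydrogenase, at 0.51 ± 0.21, ECHS1 at -0.28 ± 0.12 and the isomerase ECI1 at 0.04 ± 0.13 did not pass. With a GC offset ECI1 was -0.32 and passed as lower (edgeR adjusted p = 0.00185). Of the carnitine shuttle, the translocase SLC25A20 fell by 0.56, and the transferases CPT1A (0.18 ± 0.10) and CPT2 (-0.14 ± 0.11) did not pass. ACAT1, the acetoacetyl-CoA thiolase of ketone body metabolism, fell by 0.49 (edgeR adjusted p = 0.00313), and did not pass without untreated replicate 2, untreated replicate 3 or GO replicate 3 (-0.50 to -0.42). BDH1 was at -0.02 ± 0.34.

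ACSL5 rose after GO, from 11.4, 12.1 and 10.1 CPM to 20.5, 19.5 and 19.8 CPM (0.83 ± 0.12, edgeR adjusted p = 0.000125), as did ACSL1, from 24.6, 24.4 and 25.5 to 36.2, 40.1 and 37.5 CPM (0.61 ± 0.09, edgeR adjusted p = 0.000145). Neither overlapped with untreated cells. ACSL3 (-0.13 ± 0.11) and ACSL4 (-0.26 ± 0.15), which load long-chain and polyunsaturated fatty acids, did not pass, nor did the isomerase ECI2 (-0.11 ± 0.12, and 0.01 with a GC offset).

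**Figure D1:**
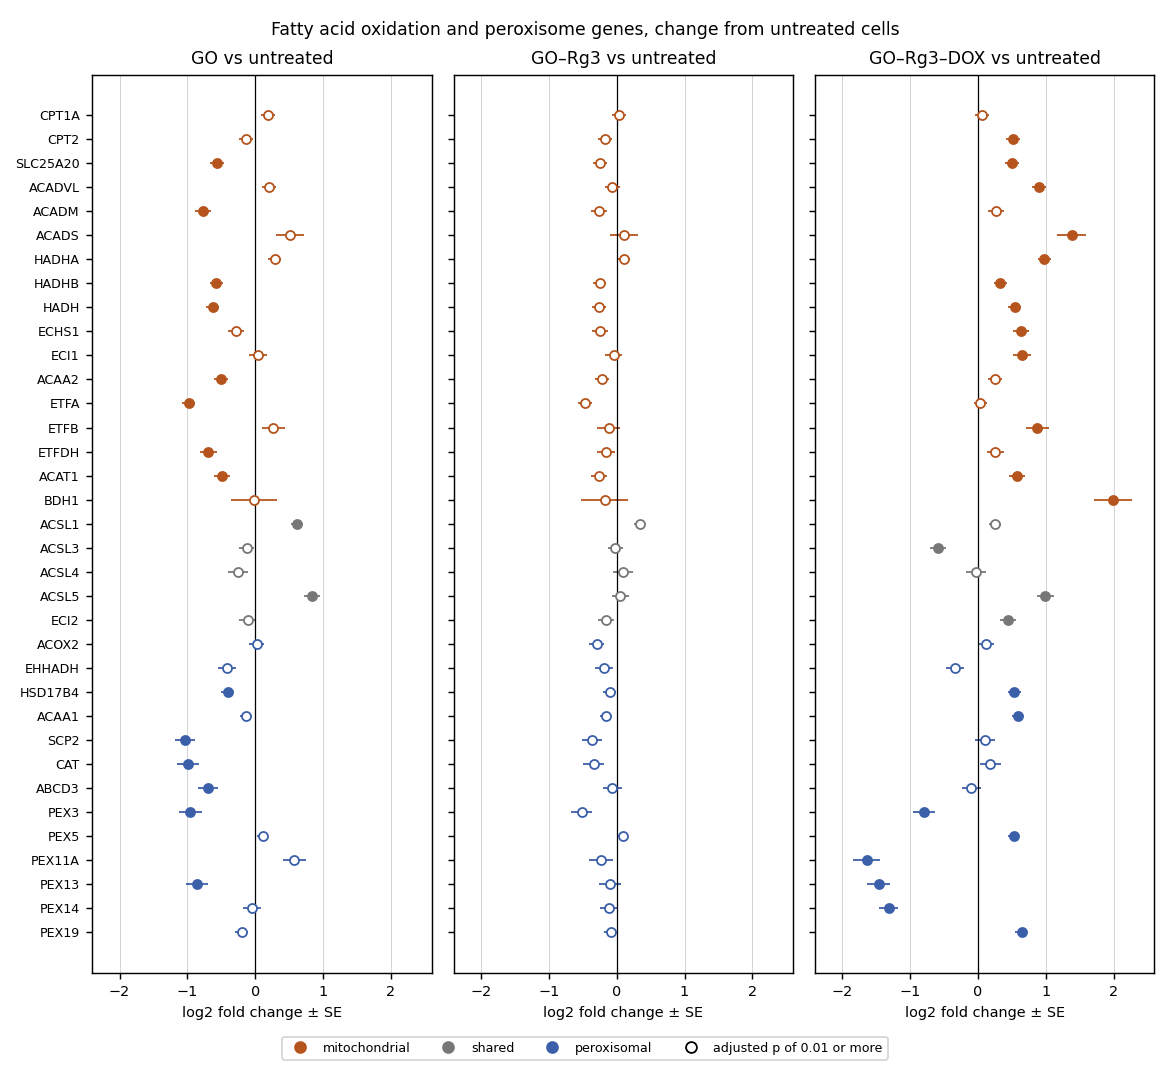
Log2 fold change from untreated cells (x axis, bars ± SE) of the 35 tested members, listed from the carnitine shuttle to the peroxins, in a panel for each treatment; filled points passed at an adjusted p below 0.01. After GO 14 filled points lie left of 0 and 2 right of it, after GO–Rg3 there are 0 filled points, and after GO–Rg3–DOX all 17 mitochondrial members lie right of 0 while the lowest points are PEX11A, PEX13 and PEX14.

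HADHA and HADHB encode the alpha and beta subunits of the mitochondrial trifunctional protein and are transcribed away from each other, from starts 307 bases apart on chromosome 2. Their promoter windows in RefSeq (250 bases before to 50 after each start, build GRCh38.p14) share 194 bases between the starts, printed because the genes with this stretch in common did not change alike. The stretch is chr2:26244689-26244882, written on the plus strand, the strand of HADHB, and the capitals mark a match to the GC box (GGGCGG on either strand).
HADHA and HADHB, shared: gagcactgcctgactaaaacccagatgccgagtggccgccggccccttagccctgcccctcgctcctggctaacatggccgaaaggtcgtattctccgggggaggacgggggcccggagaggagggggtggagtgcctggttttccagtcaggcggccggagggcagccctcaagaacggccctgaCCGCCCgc
HADHA was at 220.2, 217 and 215 CPM in untreated cells, at 287, 258 and 248 CPM with GO, at 243, 234 and 224 CPM with GO–Rg3 and at 475, 395 and 414 CPM with GO–Rg3–DOX. HADHB was at 111.01, 109.3 and 106 CPM, at 69.9, 80.7 and 68.1 CPM, at 85.2, 100.7 and 88.6 CPM and at 134, 134 and 142 CPM in the same order. After GO, every HADHA sample lay above and every HADHB sample below the untreated samples, and after GO–Rg3–DOX both genes lay above them. The log2 ratio of HADHA to HADHB CPM was 0.998 ± 0.015 (SD, n = 3) in untreated cells, 1.86 ± 0.181 with GO, 1.36 ± 0.151 with GO–Rg3 and 1.64 ± 0.159 with GO–Rg3–DOX, and no treated sample overlapped with an untreated one. HADHA itself did not pass the test after GO (0.28 ± 0.09, edgeR adjusted p = 0.0249), while HADHB did (-0.58 ± 0.10, edgeR adjusted p = 0.000268).

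The thiolases of the compartments, ACAA1 in peroxisomes and ACAA2 in mitochondria, had a log2 ratio of 0.499 ± 0.0223 in untreated cells, 0.873 ± 0.168 with GO, 0.554 ± 0.243 with GO–Rg3 and 0.841 ± 0.0566 with GO–Rg3–DOX (SD, n = 3). The GO and GO–Rg3–DOX samples lay above all untreated samples, and GO–Rg3 overlapped with them. ACAA1 was at 164, 172 and 173 CPM in untreated cells, at 158, 152 and 154 CPM with GO, at 164, 137 and 157 CPM with GO–Rg3 and at 254, 257 and 256 CPM with GO–Rg3–DOX. ACAA2 was at 117.04, 123 and 121 CPM, at 96.7, 83.8 and 74.4 CPM, at 97.1, 113 and 101.4 CPM and at 148, 140.5 and 139 CPM. After GO–Rg3–DOX both lay above all untreated samples, ACAA1 by 0.59 ± 0.09 (edgeR adjusted p = 2.32e-05) and ACAA2 by 0.25 ± 0.10, which did not pass (edgeR adjusted p = 0.0414) and was -0.17 with library totals in place of TMM. ACAA1 shares exonic bases with DLEC1 on the other strand.

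The isomerases ECI1 and ECI2, which shift double bonds of unsaturated fatty acids, passed the test after GO–Rg3–DOX and not after GO or GO–Rg3. With a GC offset ECI1 instead passed after GO, as lower (-0.32), and not after GO–Rg3–DOX (0.18). ECI1 was at 30.3, 27.7 and 29.3 CPM in untreated cells, at 34.7, 27.8 and 27.1 CPM with GO, at 32.4, 22.8 and 29.2 CPM with GO–Rg3 and at 43.9, 48.1 and 45.1 CPM with GO–Rg3–DOX. ECI2 was at 22.2, 23.2 and 21.5 CPM, at 23.5, 19.7 and 18.8 CPM, at 17.7, 22.7 and 19.6 CPM and at 31.3, 27.5 and 32.6 CPM. GO and GO–Rg3 samples overlapped with untreated cells for both genes, and GO–Rg3–DOX samples did not (0.65 ± 0.13 for ECI1 and 0.45 ± 0.12 for ECI2).

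After GO–Rg3 at 400 µg/mL, 0 of the 35 members passed the test in either direction, where 0.0585% of all genes were higher and 0.105% lower. An unadjusted edgeR p below 0.05 was found for 11 of the 35 members and for 2291 of all 17092 genes. All groups shared 1 estimate of the spread. Without GO replicate 1, 0 members were higher and 1 lower, beside 41 and 319 of all 17092 genes. With DESeq2 in place of edgeR, ACSL1 was higher and ETFA lower. The smallest adjusted p was that of ETFA, at 160.3, 194 and 185 CPM (-0.47 ± 0.10, edgeR adjusted p = 0.031). PEX3 was at -0.52 ± 0.16 (edgeR adjusted p = 0.132) and ACSL1 at 0.34 ± 0.09 (edgeR adjusted p = 0.0834). By sign, 28 members were below and 7 above untreated cells. In 17 members, or 48.6%, all GO–Rg3 samples lay below all untreated samples, against 16.6% of all genes, and in 2, or 5.71%, they lay above, against 9.12%. The medians were -0.18 for mitochondrial and -0.16 for peroxisomal members. Fold changes plus or minus 2 standard errors reached from -0.49 to -0.03 for ACADM, from -0.66 to -0.08 for SCP2 and from -0.64 to -0.03 for CAT.

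GO–Rg3 and GO were given at the same dose and for the same time. The study linked Rg3 to GO in strong acid and measured larger, thicker and less negatively charged flakes afterwards, so the ginsenoside and these properties cannot be told apart in this comparison. Here 7 members were higher and 2 lower with Rg3, or 20% and 5.71%, beside 7.33% and 6.25% of all genes, and 0 were called where 2.77% of all genes were. The 7 were ACADM (0.51 ± 0.12), ETFA (0.51 ± 0.10), ETFDH (0.53 ± 0.13), SCP2 (0.67 ± 0.15), CAT (0.66 ± 0.16), ABCD3 (0.63 ± 0.15) and PEX13 (0.76 ± 0.16), and the 2 were ACSL5 (-0.78 ± 0.12) and PEX11A (-0.81 ± 0.17). PEX11A was at 3.51, 4.34 and 4.40 CPM after GO–Rg3, below all GO samples.

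How many members passed depended on single samples. The count of higher members fell from 7 to 0 without GO–Rg3 replicate 3, to 1 without GO–Rg3 replicate 2 and to 2 without GO replicate 3, and it was 0 when only the 6 samples compared were fitted. The fold changes of the 9 genes had the same direction under every alternative tried. Only ACSL5 passed at an adjusted p below 0.01 in all of them. This comparison shares the GO samples with that of GO and untreated cells, so its values are not independent of them.

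After GO–Rg3–DOX at 100 µg/mL the medians of the mitochondrial and peroxisomal members lay apart. Outside the members they lay closer, at 0.39 for 19 other genes listed with mitochondrial fatty acid oxidation and 0.31 for 29 other peroxisomal genes. Of the 35 members 18 were higher and 5 lower, or 51.4% and 14.3%, beside 25.5% and 30.5% of all genes, and 5 were called beside 30.8% of all genes. All 17 tested mitochondrial members had a positive fold change, 12 of them past the test and 0 lower, with a median of 0.54. Of the 13 peroxisomal members 4 rose and 4 fell, with a median of 0.10, and the median of all genes was -0.06. Without GO–Rg3–DOX replicate 1, which stood apart, 11 mitochondrial members rose and 0 fell (median 0.58), and 4 peroxisomal members rose and 4 fell (median 0.18). The peroxisomal median was 0.06 without replicate 2 and 0.01 without replicate 3. Summed over the members, mitochondrial transcripts were at 1583 ± 9.78 CPM in untreated cells and at 2436 ± 47.5 CPM after GO–Rg3–DOX, and peroxisomal transcripts at 1094 ± 1.96 and 1317 ± 88.5 CPM. The summed level of the hepatocyte markers was higher too, at 30215 to 35485 CPM. Of the 8 markers 6 passed the test as higher and 1 as lower, and their part in the result was not tested.

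These changes depended on the scaling. With library totals in place of TMM the median of all genes moved to -0.47, 4 mitochondrial members rose (HADHA, ACADVL, ACADS and BDH1), 5 peroxisomal members fell and 0 rose. The mitochondrial median was then 0.13, and HADHB, ACAA2 and ETFA turned to -0.09, -0.17 and -0.37. With TMM, the mitochondrial median was 0.60 and the peroxisomal median 0.16 above that of all genes, differences that a change of scaling leaves nearly as they are by construction.

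The rises covered most steps of mitochondrial oxidation. ACADS had the largest of the beta-oxidation enzymes (GRCh37 chr12:121163577-121177811, plus strand). It was at 11.9, 9.30 and 10.7 CPM in untreated cells, at 18.1, 13.0 and 14.6 CPM with GO, at 15.7, 7.10 and 11.6 CPM with GO–Rg3 and at 28.6, 27.9 and 26.5 CPM with GO–Rg3–DOX. All GO–Rg3–DOX samples lay above all untreated samples. The log2 fold change was 1.38 ± 0.21 (edgeR adjusted p = 3.22e-05), and it was 0.79 with a GC offset and 0.96 with library totals, past the test but short of a call.

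HADHA rose by 0.98 ± 0.09 (edgeR adjusted p = 3.33e-07) and ACADVL by 0.90 ± 0.10 (edgeR adjusted p = 2.2e-06), the latter from 418 ± 7.47 to 779 ± 8.39 CPM. ECI1, ECHS1 and HADH rose by 0.65, 0.64 and 0.54, of which ECI1 did not pass with a GC offset (0.18), and HADHB by 0.33 ± 0.09 (edgeR adjusted p = 0.00644), which did not pass when any one untreated or GO–Rg3–DOX sample was left out (0.30 to 0.34). ACADM (0.27 ± 0.12) and ACAA2 did not pass. All 9 tested beta-oxidation enzymes were without overlap above untreated cells. Over all 35 members 21 lay above and 6 below without overlap, against 35% and 40.3% of all genes. CPT2 and SLC25A20 rose by 0.52 and 0.50 while CPT1A, the regulated entry enzyme, was at 0.06 ± 0.10. In the electron transfer flavoprotein ETFB rose, to 28.8, 27.2 and 25.8 CPM (0.87 ± 0.17, edgeR adjusted p = 0.000355), and ETFA, at 231, 258 and 277 CPM (0.04 ± 0.10), and ETFDH (0.26 ± 0.13) did not pass.

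Of the ketone body enzymes, ACAT1 rose by 0.57 ± 0.11 and BDH1 was called (GRCh37 chr3:197236654-197300194, minus strand). BDH1 was at 0.238, 0.320 and 0.306 CPM in untreated cells, at 0.235, 0.348 and 0.255 CPM with GO, at 0.216, 0.354 and 0.206 CPM with GO–Rg3 and at 1.32, 1.15 and 0.991 CPM with GO–Rg3–DOX. GO and GO–Rg3 overlapped with untreated cells, and GO–Rg3–DOX lay above them. The rise of 1.99 ± 0.28 (edgeR adjusted p = 1.68e-05) was thus that of a rare transcript, with 177 counts over all 12 samples.

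**Figure D2:**
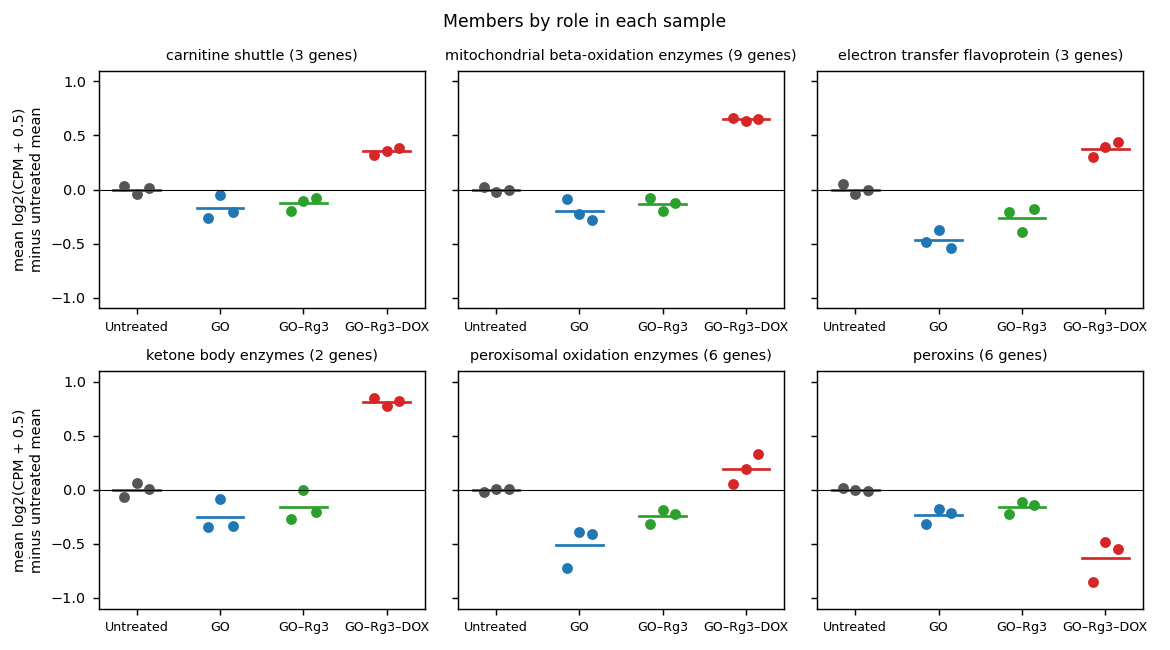
Mean over the genes of a role of log2(CPM + 0.5) minus the untreated mean (y axis) in each of the 12 samples, with points for samples, lines for group means and a panel for each of 6 roles. The 9 beta-oxidation enzymes average between 0.63 and 0.66 in the GO–Rg3–DOX samples, the 6 peroxins between -0.85 and -0.48, and the 6 peroxisomal oxidation enzymes are at -0.72 to -0.39 in the GO samples.

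Within peroxisomes, 2 of the 6 oxidation enzymes rose after GO–Rg3–DOX and 0 fell, namely ACAA1 and HSD17B4 (0.54 ± 0.10, edgeR adjusted p = 0.00014). SCP2 (0.10 ± 0.15), CAT (0.18 ± 0.15), ACOX2 (0.13 ± 0.11) and EHHADH (-0.34 ± 0.13) did not pass, nor did ABCD3 (-0.10 ± 0.14). All 6 peroxins passed, 2 higher and 4 lower. PEX5, the receptor that brings matrix proteins to the peroxisome, rose by 0.53 ± 0.09, and PEX19, the chaperone of peroxisomal membrane proteins, rose by 0.64 ± 0.10. PEX3, the membrane anchor to which PEX19 docks, fell by 0.79 ± 0.16 (edgeR adjusted p = 0.00054), and did not pass with a GC offset (-0.18).

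The 3 other peroxins were called under-expressed. PEX13 and PEX14 form the docking complex for PEX5 at the peroxisomal membrane. PEX13 (GRCh37 chr2:61244360-61279125, plus strand) was at 33.5, 29.3 and 30.8 CPM in untreated cells, at 12.9, 19.4 and 19.2 CPM with GO, at 26.7, 30.8 and 30.3 CPM with GO–Rg3 and at 8.61, 12.6 and 12.7 CPM with GO–Rg3–DOX. The GO and GO–Rg3–DOX samples lay below all untreated samples, and the log2 fold change after GO–Rg3–DOX was -1.46 ± 0.17 (edgeR adjusted p = 1.77e-06). With a GC offset it was -0.91, past the test but short of a call.

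PEX14 (GRCh37 chr1:10532345-10690815, plus strand) was at 17.5, 16.3 and 16.0 CPM, at 17.1, 16.1 and 14.7 CPM, at 17.9, 12.9 and 15.2 CPM and at 5.64, 7.69 and 6.63 CPM in the same order. Only the GO–Rg3–DOX samples were without overlap below untreated cells (-1.31 ± 0.14, edgeR adjusted p = 1.02e-06). PEX13 shares exonic bases with PUS10 and PEX14 with DFFA on the other strand, and whether strand was used in counting is not given in the sources used here.

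PEX11A (GRCh37 chr15:90220995-90234014, minus strand) was at 4.50, 5.08 and 4.83 CPM in untreated cells and at 0.948, 1.94 and 1.68 CPM after GO–Rg3–DOX, without overlap (-1.64 ± 0.20, edgeR adjusted p = 3.33e-06). After GO it was at 6.5, 7.25 and 7.67 CPM, above untreated cells in all 3 samples (0.58 ± 0.17), but did not pass the test (edgeR adjusted p = 0.0127).

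The 250 bases before the starts of PEX11A and PEX13, the members with the largest falls after GO–Rg3–DOX, are given from RefSeq (GRCh38.p14) in the direction of transcription. PEX11A lies at chr15:89690755-89691004 on the minus strand and PEX13 at chr2:61017470-61017719 on the plus strand. Capitals mark the GC box (GGGCGG) and the ETS core (CCGGAAGT) on either strand.
PEX11A: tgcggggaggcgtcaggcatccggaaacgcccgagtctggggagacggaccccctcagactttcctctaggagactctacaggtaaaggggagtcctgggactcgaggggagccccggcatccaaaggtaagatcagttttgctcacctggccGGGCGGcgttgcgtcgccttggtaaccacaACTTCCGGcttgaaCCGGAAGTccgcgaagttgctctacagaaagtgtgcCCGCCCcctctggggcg
PEX13: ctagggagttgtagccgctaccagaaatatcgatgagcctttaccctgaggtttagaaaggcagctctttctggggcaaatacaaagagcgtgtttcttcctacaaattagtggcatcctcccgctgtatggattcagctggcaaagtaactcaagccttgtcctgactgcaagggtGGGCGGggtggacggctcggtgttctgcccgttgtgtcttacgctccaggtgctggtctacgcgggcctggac
Promoter windows of 300 bases were found for 31 of the 36 members. A GC box was present in 26 of the 31 members, in 14 of 17 mitochondrial, 8 of 9 peroxisomal and 4 of 5 shared members, and in 48.3% of all 27305 genes. These 27305 genes were not limited to those expressed in Huh7, and the share among expressed genes alone was not taken. The ETS core was found in CPT2 and PEX11A and in 4.95% of all genes. The half-site of nuclear receptors, AGGTCA, was found in ACSL5 and in 16.5% of all genes, and the peroxisome proliferator response element, a direct repeat of it with 1 base between, in 0 of the 31 members and in 0.0293% of all genes.

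**Figure D3:**
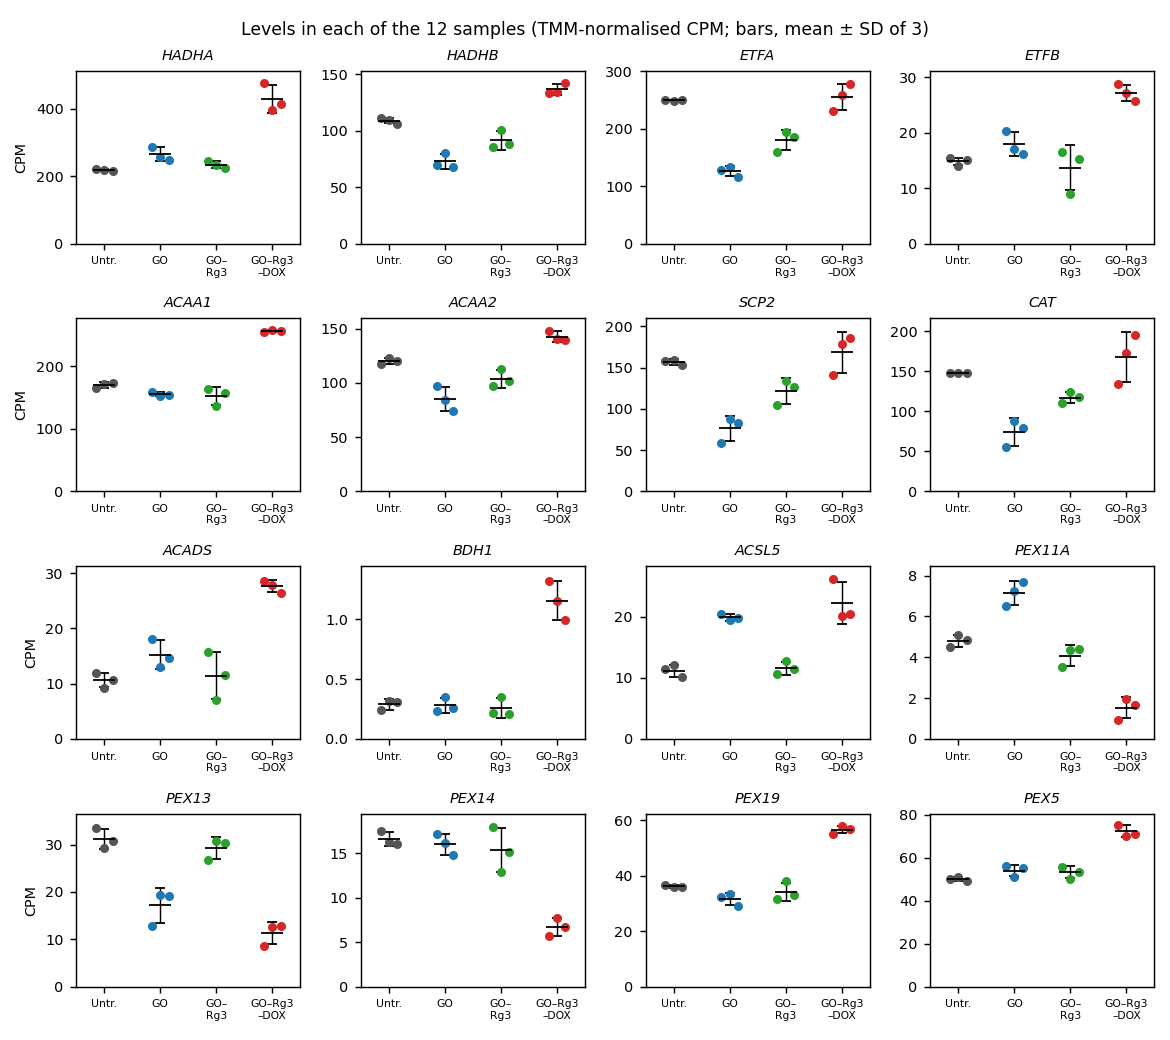
CPM (y axis, from 0) of 16 members in each of the 12 samples, with black bars for the mean ± SD of 3 samples per group. In the GO samples HADHA and ETFB lie above and HADHB and ETFA below all untreated samples. In the GO–Rg3–DOX samples PEX11A, PEX13 and PEX14 lie below and PEX5, PEX19, ACADS and BDH1 above all untreated samples.

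Of the genes between the compartments, ACSL5 rose by 0.99 ± 0.12 after GO–Rg3–DOX (edgeR adjusted p = 4.83e-06), at 26.2, 20.1 and 20.4 CPM, and its exons overlap those of ZDHHC6 on the other strand. ECI2 rose by 0.45 ± 0.12, and did not pass without untreated replicate 1 or 3 or without GO–Rg3–DOX replicate 1 or 3 (0.40 to 0.45), nor with library totals (0.029). ACSL3 fell by 0.59 ± 0.11 (edgeR adjusted p = 0.000293), but was 0.02 with a GC offset. ACSL1 (0.25 ± 0.09) and ACSL4 (-0.03 ± 0.15) did not pass.

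The mean deviation of each compartment from untreated cells was also taken sample by sample on the log2(CPM + 0.5) scale. In the GO–Rg3–DOX samples the mitochondrial members averaged 0.56, 0.56 and 0.59 and the peroxisomal members -0.39, -0.14 and -0.10, below 0 although their median fold change (0.10) and their summed CPM were above untreated cells. Mitochondrial minus peroxisomal members gave 0.95, 0.70 and 0.69 in the GO–Rg3–DOX samples and -0.02 to 0.02 in untreated samples. In the GO samples the difference was 0.34, 0.09 and 0.01, where 0.34 belonged to GO replicate 1, and after GO–Rg3 it was 0.12, -0.07 and 0.04. Every GO–Rg3–DOX sample lay above the untreated samples, while GO and GO–Rg3 overlapped with each other. Without the peroxins, the 7 remaining peroxisomal members averaged 0.01, 0.16 and 0.29 in the GO–Rg3–DOX samples.

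The members' fold changes moved with base composition. Over the 35 members, Spearman's rho between the log2 fold change and the GC content of the transcript was 0.59 after GO, 0.58 after GO–Rg3–DOX and -0.66 for GO–Rg3 against GO. Over all 16622 genes with a value it was 0.44, 0.37 and -0.44. These are descriptions across genes, which are not replicates, and the part of base composition in the results was not tested beyond the offset. Median GC content was 49.4% for mitochondrial, 44.3% for peroxisomal and 48.4% for all genes. With an offset for GC content in the fit, 9 mitochondrial and 7 peroxisomal members were lower after GO, and 1 peroxisomal member was higher. After GO–Rg3–DOX, 15 mitochondrial and 7 peroxisomal members were higher, and 3 peroxisomal members were lower. Over all 17092 genes this fit gave 2236 higher and 2944 lower after GO, and 5145 and 4862 after GO–Rg3–DOX. The mitochondrial and peroxisomal medians of the members after GO–Rg3–DOX were then 0.60 and 0.25. Gene length in the genome had a rho of -0.43 over the members after GO–Rg3–DOX and -0.14 over all genes.

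**Figure D4:**
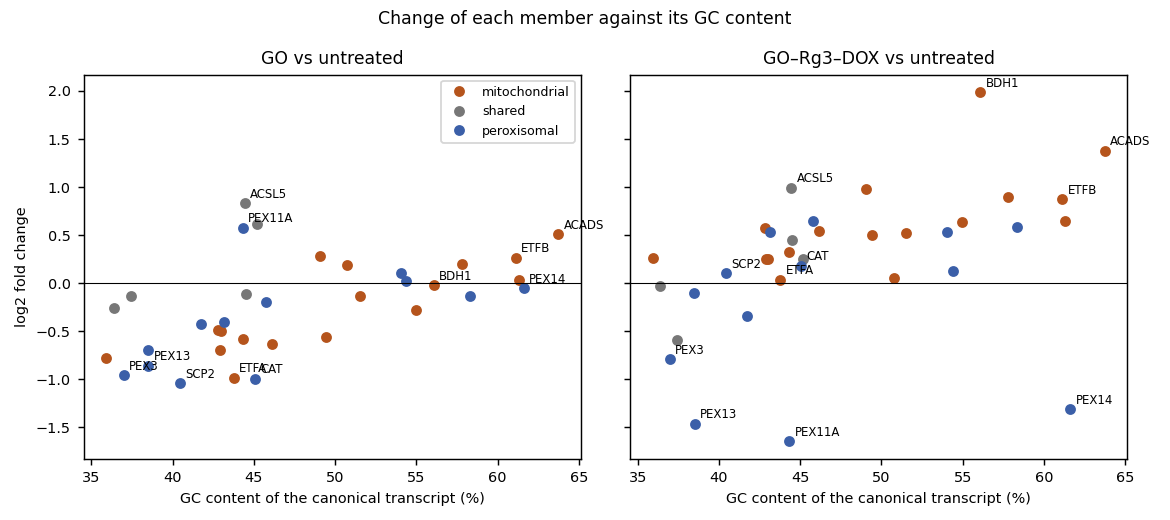
Log2 fold change (y axis) of the 35 tested members against the GC content of the canonical transcript (x axis, %), for GO and for GO–Rg3–DOX, coloured by compartment. Spearman's rho is 0.59 and 0.58, and PEX14 lies low after GO–Rg3–DOX despite a GC content of 61.6%.

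Further genes of these pathways were followed in lists. The list of other genes around mitochondrial fatty acid oxidation was not confined to enzymes of the cycle or to mitochondrial proteins. Of its 19 tested genes, 4 rose and 1 fell after GO, 0 passed after GO–Rg3, and 8 rose and 3 fell after GO–Rg3–DOX. Beside these and the counts of the lists that follow, 12.1% of all genes rose and 15.4% fell after GO, and 25.5% rose and 30.5% fell after GO–Rg3–DOX. The median log2 fold change of the 19 was -0.14 after GO and 0.39 after GO–Rg3–DOX, against 0.01 and -0.06 over all genes. Those past the test after GO were CPT1B, ACAD10, CRAT and ACACB, which rose by 0.39 to 0.76, and BDH2, which fell by 0.74. CPT1C, a brain-type relative of CPT1A, had the largest rise, from 0.0794, 0.0959 and 0.259 CPM in untreated cells to 5.60, 7.40 and 5.87 CPM after GO–Rg3–DOX (5.34 ± 0.29, edgeR adjusted p = 9.05e-10). Its untreated levels rest on few counts, so the size of this rise is poorly fixed. CRAT, the carnitine acetyltransferase, rose by 1.29 ± 0.16, while MLYCD, which degrades malonyl-CoA, CPT1B and ACOT2 fell (-1.31, -0.82 and -0.42). ACAD10 was lower with GO–Rg3 than with GO (-0.39).

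Of 29 other peroxisomal genes, 1 rose and 8 fell after GO, 0 passed after GO–Rg3, and 11 rose and 5 fell after GO–Rg3–DOX, where 25.5% and 30.5% of all genes did. Their median was -0.21 after GO and 0.31 after GO–Rg3–DOX. The rise after GO was that of PEX26 (0.43). SLC27A2, a very-long-chain acyl-CoA synthetase, and the peroxiredoxin PRDX5 rose by 1.37 and 1.08 after GO–Rg3–DOX. SLC25A17, a peroxisomal cofactor transporter, and PXMP4 fell (-0.57 and -0.42). With GO–Rg3 against GO, CROT (0.57) and SLC25A17 (0.66) were higher.

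Of the 9 tested peroxins outside the 36 members, 3 rose and 3 fell after GO–Rg3–DOX. PEX6, PEX10 and PEX26 rose by 0.61, 0.62 and 0.56. PEX2, part of the ubiquitin ligase that recycles PEX5, fell (-1.02 ± 0.15). With the members, 5 of 15 peroxins rose and 7 fell, beside 25.5% and 30.5% of all genes. The median was 0.29 for these 15, -1.05 for the 6 members and 0.39 for the 9 others. Of the 15 peroxins 6 were called lower and 0 higher, beside 3103 and 2159 of all 17092 genes.

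Peroxisome proliferator-activated receptors and their coactivators regulate many of these genes. Of 16 tested genes of a list of such regulators and targets, 2 rose and 1 fell after GO, 1 fell after GO–Rg3, and 3 rose and 6 fell after GO–Rg3–DOX, where 25.5% and 30.5% of all genes did. The fatty acid binding protein FABP1 was among the rises (0.77). PPARA, the receptor that drives fatty acid oxidation in liver, did not pass in any comparison (-0.37 ± 0.13 after GO, edgeR adjusted p = 0.0315; -0.02 ± 0.13 after GO–Rg3–DOX). PPARG, a relative known for lipid storage, fell from 146, 151 and 147 CPM to 54.5, 64.9 and 56.1 CPM after GO (-1.34 ± 0.10, edgeR adjusted p = 2.27e-07). After GO–Rg3 it was at 83.2, 99.7 and 95.8 CPM (-0.67 ± 0.10, edgeR adjusted p = 0.00626) and after GO–Rg3–DOX at 78.8, 76.2 and 77.1 CPM (-0.94 ± 0.10), and no treated sample overlapped with untreated cells.

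PPARGC1A, a coactivator of oxidative metabolism, was rare, with 7 or 8 counts in the untreated samples, 11, 32 and 19 after GO, 7 to 10 after GO–Rg3 and 0 in all GO–Rg3–DOX samples. It was thus at least 1.83-fold lower after GO–Rg3–DOX than in untreated cells, against a floor of 3 counts per library that covers counting error only. After GO it rose by 1.57 ± 0.37 (edgeR adjusted p = 0.00436). It did not pass without any one of the untreated samples, without GO replicate 2 or with library totals, at fold changes of 1.23 to 1.71. PPARGC1B, the corepressor NRIP1 and the lipid droplet protein PLIN2 fell after GO–Rg3–DOX (-1.36, -1.79 and -1.5). ANGPTL4, a lipase inhibitor and receptor target, rose after GO and GO–Rg3–DOX (1.28 ± 0.27 and 1.11 ± 0.28) and was lower with GO–Rg3 than with GO (-1.55 ± 0.28, edgeR adjusted p = 0.00127), at mean levels of 0.638 to 1.92 CPM. Its rise after GO no longer passed without untreated replicate 1, nor that after GO–Rg3–DOX without untreated replicate 1, GO–Rg3–DOX replicate 1 or 2, or with a GC offset (0.55) or library totals (0.69). PDK4, a target that spares glucose, did not pass in any comparison and was at -1.03 ± 0.32 for GO–Rg3 against GO (edgeR adjusted p = 0.0252).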

How the data were processed

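RNA from 12 samples of Huh7 cells in 4 groups of 3 was measured by sequencing of stranded mRNA libraries. The counts deposited by the authors are whole numbers of reads per Ensembl gene, not normalized, made by featureCounts within the NGI-RNAseq pipeline against GRCh37; the counting options are not given in the sources used here. The 36 members and all lists were chosen with earlier results of these data known. The 36 genes were matched by symbol.

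Genes reaching 10 counts in 3 or more samples (17092) were scaled by TMM and tested with the quasi-likelihood test of edgeR 4.0.16 (R 4.3.3) on all 12 samples, without a replicate block, with Benjamini-Hochberg adjustment. The thresholds were those of the study, which used DESeq2. Standard errors were taken from the log2 fold change and its F statistic. Transcript length and GC content are those of the Ensembl canonical transcript. All 36 members are named; values per sample are given for called members, the pairs compared and some that were added after their values were seen (CAT, ACSL1, ACSL5, CPT1C, PPARG). Of the other lists, genes were named if called, at most 5 each way, and PPARA, PPARGC1A, PDK4 and ANGPTL4 always. Some genes of these lists are not reported here. Others are named where a count was 5 or fewer, chosen after their values were seen.

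Samples were grouped by their labels. Depth was 27802871 to 38877420 counts, and the floor of 3 counts covers counting error only. Ranges of 2 standard errors come from the fit and include its estimate of the spread between samples. On simulated counts of GO and untreated cells (17092 genes) the fit was tested, recovering 187 of 200 genes given a log2 fold change of 2, with 1 false call. Alternatives were RLE scaling, library totals, mitochondrially encoded genes left out, no filter, 10 counts in every sample, DESeq2 1.42.0, a replicate block, a GC offset (loess, span 0.5) without and with the block, fits of just the 6 samples in a comparison, leaving out single samples, and adjusted p thresholds of 0.05 and 1e-04. No duplicate libraries were found. Python 3.11.15 with pandas 2.3.3 wrote the tables.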

Additional observations from a re-analysis of the deposited data

How the results depend on the processing

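Counts are of the 35 members past the test. After GO, 2 higher members became 4 with no filter, DESeq2, a GC offset with the block or a threshold of 0.05, and 0 at 1e-04, where 14 lower became 2. The mitochondrial median after GO was -0.42 with library totals, -0.41 with no filter and -0.36 with 10 counts in every sample. After GO–Rg3, 0 higher became 1 with the GC offset (with and without the block) and DESeq2, and 0 lower became 1 with these, no filter or 0.05. With just the 6 samples the medians were -0.11 and -0.084.

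After GO–Rg3–DOX, 18 higher became 5 with library totals and 8 at 1e-04, and 5 lower became 3 with the GC offset (with and without the block) and at 1e-04. The mitochondrial median was 0.61 with RLE and with DESeq2, 0.13 with library totals, 0.45 with no filter, 0.56 with 10 counts in every sample, 0.60 with the GC offset (with and without the block) and 0.58 with the 6 samples. The peroxisomal median was -0.30 with library totals. For GO–Rg3 against GO, 7 higher became 4 with library totals, 0 with the 6 samples, 11 with DESeq2, 12 at 0.05 and 0 at 1e-04, and 2 lower became 1, 1, 2, 4 and 0. The mitochondrial median, 0.04, was 0.21 with library totals, 0.16 with no filter, 0.11 with 10 counts in every sample and 0.18 with the GC offset (0.18 with the block). The causes were not tested.

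Leaving out single samples gave 2 to 3 higher and 12 to 15 lower after GO (medians -0.44 to -0.18 and -0.46 to -0.27), 0 to 0 higher and 0 to 1 lower after GO–Rg3 (-0.23 to -0.17 and -0.18 to -0.14; the 1 without GO replicate 1), 16 to 18 higher and 5 to 6 lower after GO–Rg3–DOX (0.50 to 0.60 and 0.01 to 0.18), and 0 to 8 higher and 1 to 2 lower for GO–Rg3 against GO (-0.019 to 0.19 and 0.13 to 0.33).

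Directions turned for ECI1 after GO (-0.10 with library totals, -0.32 with the GC offset with and without the block, -0.083 without GO replicate 1), ETFB (-0.081, and -0.078 with the block) and ECI2 (0.0058, and 0.0030 with the block) after GO with the GC offset, and after GO–Rg3–DOX for HADHB (-0.087) and ACAA2 (-0.17) with library totals, ETFA (-0.37 with library totals, -0.044 with no filter, -0.026 to 0.10 without single samples) and ACSL3 (0.019 with the GC offset, 0.018 with the block). Of 1772 repeats over 74 gene comparisons, 15 turned, 142 no longer passed and 12 newly passed.

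Whether replicate numbers pair the samples is not given by the labels. Same-numbered deviations correlated at -0.02 to 0.25 over 18 pairs, with a mean of 0.091 against -0.045 for other pairs. Over all genes, 2074 higher and 2639 lower after GO became 2601 and 3190 with the number as a block. With the number as a block, 3 members were higher and 15 lower with GO, 0 and 0 with GO–Rg3, 18 and 5 with GO–Rg3–DOX, and 8 and 2 for GO–Rg3 against GO.

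Over all genes, library totals turned the split of higher and lower genes from 2074 and 2639 to 1223 and 2780 after GO, from 4350 and 5214 to 2152 and 7293 after GO–Rg3–DOX, from 1253 and 1068 to 1209 and 489 for GO–Rg3 against GO and from 10 and 18 to 5 and 25 after GO–Rg3. Depth limits statements on ACADL, BDH1, PPARGC1A and CPT1C.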
